A study of Mus musculus with 4 samples.

Results

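Dendritic cells are the antigen-presenting relatives of macrophages, and 10 genes used to recognise them were followed here in cultured mouse macrophages. The genes were Itgax, Ccr7, Flt3, Zbtb46, Batf3, Fscn1, Dpp4, Tcf4, Bst2 and Siglech. They were found by symbol among the probe sets annotated to 1 gene, which gave 24 of 34945 such probe sets and 10 of the 18193 genes measured. Itgax, Ccr7, Flt3, Batf3, Bst2 and Siglech had 1 probe set each, Zbtb46, Fscn1 and Dpp4 had 4 each, and Tcf4 had 6. None of the 10 was named by a probe set annotated to several genes.

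The cells came from mouse bone marrow grown with the macrophage growth factor M-CSF for 5 days. They were Jmjd3-/- cells with LPS, Jmjd3-/- cells unstimulated, wild-type cells with LPS and wild-type cells unstimulated. LPS, a bacterial cell wall component, was given at 100 ng/ml for 4 h, and Jmjd3, encoded by Kdm6b, is a histone demethylase. The sources used here do not say how the Jmjd3-/- allele was made, which strain and age the mice had or whether cells were pooled. Each of the 4 groups had 1 array, so a difference between 2 arrays has no replicate check. Effects shared across genotypes or states were tested with limma on all 4 arrays, in an additive model of genotype and LPS with 1 residual degree of freedom. The error behind its p-values is how far the LPS response of Jmjd3-/- cells departs from that of wild-type cells, moderated over 9385 genes. Nothing says that the arrays came from separate animals or cultures. The words rose and fell are kept for a Benjamini-Hochberg adjusted p below 0.05.

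Conventional dendritic cells arise from precursors that carry the growth factor receptor FLT3, and ZBTB46 is a transcription factor that marks that lineage. BATF3 is needed for the cross-presenting branch, whereas TCF4, BST2 and Siglec-H are linked to plasmacytoid dendritic cells, which make type I interferon. CCR7 and fascin-1 appear when dendritic cells mature and move to lymph nodes. Several of these genes are not exclusive to dendritic cells: macrophages can carry CD11c, the product of Itgax, and interferon induces Bst2 in many cells.

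The arrays resembled each other in general level and differed in markers of macrophages and of other cells. Their medians lay between 4.15 and 4.24, and 32.1% to 34.5% of probe sets read log2 6 or more, which served as the floor. All 15 measured macrophage markers reached the floor on an array, and their summed linear level was 58857 and 60553 in Jmjd3-/- cells with and without LPS, against 55793 and 55463 in wild-type cells. Such sums follow the brightest genes: between genotypes 5 of the 15 were called, Cd163 (4.57), Cx3cr1 (3.05) and Fcgr1 (0.76) higher in Jmjd3-/- cells and Marco (-2.33) and Itgam (-1.04) lower. Cd163 was under the floor on both wild-type arrays. The 11 granulocyte markers summed to 38248 and 38035 in Jmjd3-/- cells with and without LPS, against 4769 and 3468 in wild-type cells. S100a9 and S100a8 were the brightest of them in Jmjd3-/- cells. Between genotypes 9 were called higher in Jmjd3-/- cells, and Mmp8 (-2.92) was called lower. Over all genes tested, 6.39% were called higher in Jmjd3-/- cells and 3.12% lower. Of the 9, Ngp, Mpo, Ltf, Prtn3 and Elane were under the floor on both wild-type arrays and passed it through Jmjd3-/- arrays alone. The 14 stromal markers summed to 27918 and 33439 in Jmjd3-/- cells, against 5245 and 5176 in wild-type cells. Of these, 10 were called higher in Jmjd3-/- cells, and Fn1 (-0.69) was called lower. Col3a1, Mgp, Postn and Col5a1, among the 10, were likewise under the floor on both wild-type arrays. Fn1 was the brightest of the list in wild-type cells, at 12.04 with and 12.10 without LPS. The 11 markers of T, B and NK cells summed to 1534 and 2504 in Jmjd3-/- cells with and without LPS, against 5733 and 5170 in wild-type cells, with Cd4, Cd8a, Cd79a, Ms4a1, Ncr1 and Cd2 below the floor on all arrays. Most of that sum was the interleukin-7 receptor gene Il7r, at 10.39 and 11.11 in Jmjd3-/- cells with and without LPS, against 12.34 and 12.20 in wild-type cells. In this list Il7r, Cd3g, Cd3e and Cd3d fell in Jmjd3-/- cells, whereas the B cell gene Cd79b had an effect of 1.98 that did not pass (limma adjusted p = 0.11). The CD3 genes were under the floor on both Jmjd3-/- arrays, and Cd79b passed it in unstimulated Jmjd3-/- cells alone. The part of these cells in the genotype differences below was not tested. In bulk RNA fewer cells of a type and less RNA per cell cannot be told apart. Kdm6b read 10.82 with and 9.82 without LPS in Jmjd3-/- cells, against 11.23 and 10.33 in wild-type cells on its brightest probe set. Which part of the gene was deleted is unknown here, so these readings do not check the labels.

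The 10 genes did not behave as 1 group. Itgax, Ccr7 and Dpp4 fell in Jmjd3-/- cells, by 4.77-fold, 6.46-fold and 2.48-fold over both states, whereas Tcf4 rose by 2.42-fold. With LPS, Ccr7 rose by 13.7-fold, a size that rests in part on a reading of 3.17, under the floor, in unstimulated Jmjd3-/- cells, and Tcf4, Dpp4 and Bst2 by 2.15-fold to 2.31-fold. Flt3 and Siglech, the receptor of dendritic cell precursors and the surface lectin of plasmacytoid cells, were below the floor on all 4 arrays. The genes past the floor numbered 6 of 10 in Jmjd3-/- cells with LPS, 4 in Jmjd3-/- cells unstimulated, 8 in wild-type cells with LPS and 7 in wild-type cells unstimulated.

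**Figure D1:**
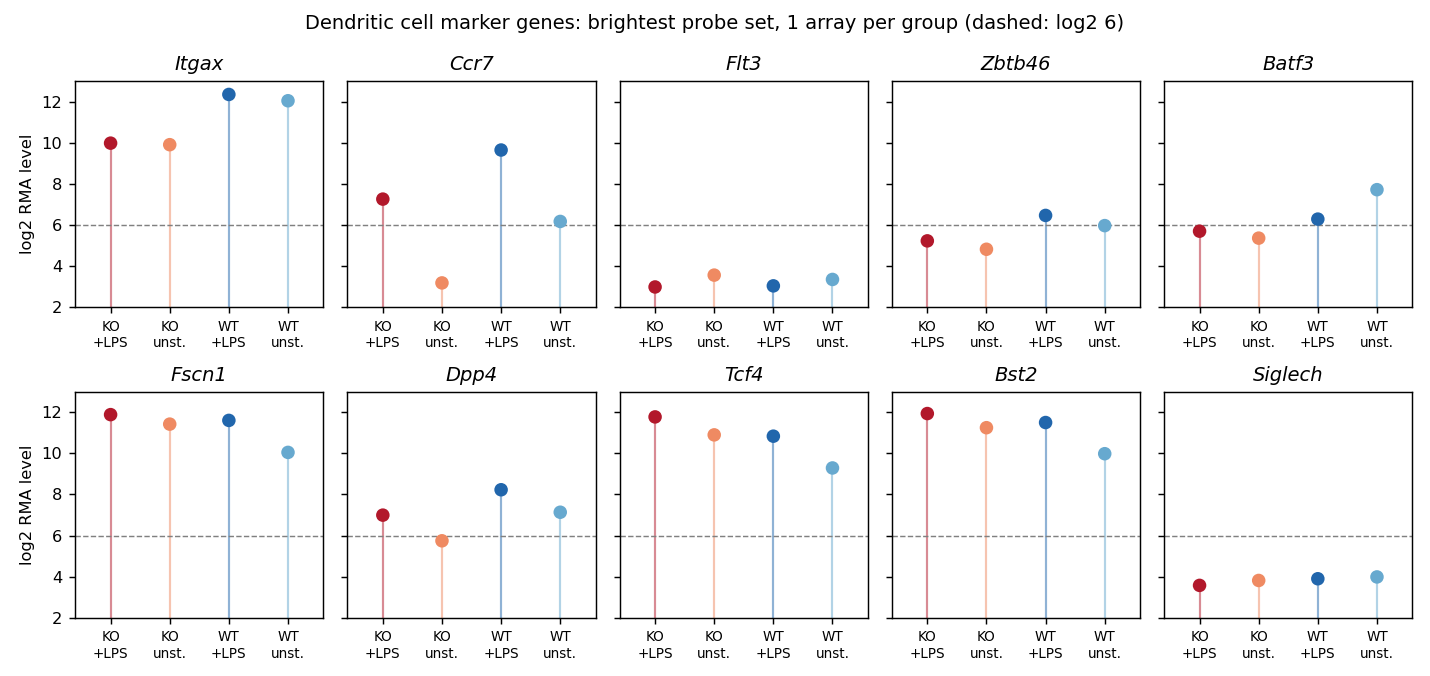
Level of each of the 10 genes on the 4 arrays (vertical axis, log2 RMA value of the brightest probe set; horizontal axis, group; 1 point per array; dashed line, log2 6). Itgax lay between 9.90 and 12.35 with both Jmjd3-/- arrays lowest, and Flt3 and Siglech stayed below 4 on all arrays.

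Of the 8 genes past the floor, 4 rose with LPS and none fell, where limma called 11.2% of 9385 genes higher and 18.8% lower. Their median LPS effect was 1.06 on the log2 scale, 0.73 over all 10 genes, beside -0.22 over all genes tested. Between genotypes, 1 rose and 3 fell, where 6.39% of genes were called higher in Jmjd3-/- cells and 3.12% lower. The median genotype effect was -1.25 past the floor and -0.72 over all 10, beside 0.05 over all genes tested. Batf3 and Zbtb46 passed the floor through wild-type arrays alone. The members were chosen with results of these arrays known, and these shares describe them without testing the choice. Fitted with genotype or LPS as the only factor, none of the 10 was called.

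Itgax encodes CD11c, an integrin alpha chain that pairs with the beta 2 chain into a receptor for complement-coated particles. Its probe set read 9.98 with LPS and 9.90 unstimulated in Jmjd3-/- cells, against 12.35 and 12.04 in wild-type cells. Both Jmjd3-/- arrays lay below both wild-type arrays, by 2.37 with LPS and 2.14 without. Itgax fell by 2.25 on the log2 scale in Jmjd3-/- cells, in 2 of 2 states (SE 0.15; limma adjusted p = 0.00246). With LPS it differed by 0.07 in Jmjd3-/- cells and 0.31 in wild-type cells, and the shared effect of 0.19 did not pass (95% interval -0.20 to 0.58; limma adjusted p = 0.367). Counted from the lowest genotype effect, Itgax ranked 112 of 9385 genes. Its partner chain gene Itgb2 fell by 0.76 in Jmjd3-/- cells (limma adjusted p = 0.0265), and Itgam, the alpha chain of the sister integrin CD11b, by 1.04 (limma adjusted p = 0.0385).

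Ccr7 encodes the chemokine receptor that guides mature dendritic cells to lymph nodes along CCL19 and CCL21. It read 7.25 with LPS and 3.17 unstimulated in Jmjd3-/- cells, against 9.64 and 6.17 in wild-type cells. LPS arrays were higher in both genotypes, and the Jmjd3-/- array was the lower one in both states. The unstimulated Jmjd3-/- level was under the floor, so differences from it rest on a background reading. With LPS Ccr7 was higher by 4.08 in Jmjd3-/- cells and 3.48 in wild-type cells, ranking 98 of 9122 and 96 of 8627 genes from the highest. It rose by 3.78 over both genotypes, in 2 of 2 (SE 0.26; limma adjusted p = 0.00343). Between genotypes it fell by 2.69 in Jmjd3-/- cells, in 2 of 2 states (SE 0.26; limma adjusted p = 0.00655). The difference was -2.99 unstimulated and -2.39 with LPS. With 64 added to the linear values, which damps dim readings, the shared effects were 2.12 for LPS and -1.44 for genotype. Genes of the CCR7 ligands were not analysed here.

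Dpp4 encodes dipeptidyl peptidase 4, known as CD26, a surface enzyme that trims chemokines and binds adenosine deaminase. Its brightest probe set read 6.99 with LPS and 5.74 unstimulated in Jmjd3-/- cells, against 8.23 and 7.13 in wild-type cells. The order followed that of Itgax, with both wild-type arrays above both Jmjd3-/- arrays, and the lowest reading was under the floor. Dpp4 rose by 1.17 with LPS (SE 0.20; limma adjusted p = 0.0177). It fell by 1.31 in Jmjd3-/- cells (SE 0.20; limma adjusted p = 0.0245). With 64 added, these effects were 0.77 and -0.86. The other 3 probe sets stayed below the floor, at 4.55 or less on all arrays. Among genes of chemokines that the enzyme can cleave, Cxcl11, Cxcl9 and Cxcl10 rose with LPS by 7.78, 6.22 and 4.48, and Cxcl12 rose in Jmjd3-/- cells by 5.26. Cxcl11 was under the floor on both unstimulated arrays, and Cxcl9 in unstimulated Jmjd3-/- cells. Cxcl12, a product of bone marrow stroma, read 9.09 and 9.07 in Jmjd3-/- cells with and without LPS, against 3.69 and 3.95 in wild-type cells, beside the stromal marker sums above.

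Tcf4 encodes an E protein, the basic helix-loop-helix factor that maintains the plasmacytoid dendritic cell state. On its brightest probe set it read 11.77 with LPS and 10.90 unstimulated in Jmjd3-/- cells, against 10.84 and 9.29 in wild-type cells. The wild-type array without LPS was lowest and the Jmjd3-/- array with LPS highest, while unstimulated Jmjd3-/- and LPS-treated wild-type cells lay close together. Tcf4 rose by 1.21 with LPS (SE 0.22; limma adjusted p = 0.0191) and by 1.27 in Jmjd3-/- cells (limma adjusted p = 0.0312). Without the intensity trend in limma the genotype call was lost, at an adjusted p of 0.0714. The 5 probe sets past the floor all gave positive differences. Across them the LPS effect averaged 1.53 ± 0.38 and the genotype effect 1.18 ± 0.16 (log2, SD over 5 probe sets, which share the same RNA). The sixth probe set stayed under the floor, at 3.16 to 3.51. LPS differences were 0.87 to 1.65 in Jmjd3-/- cells and 1.28 to 2.37 in wild-type cells over those 5. Among the other E proteins and their inhibitors, Tcf12 fell with LPS by 1.37 and Id3 by 1.92, while Tcf3 (-0.38) and Id2 (0.21) did not pass. Id3 rose in Jmjd3-/- cells by 2.93, and was under the floor in wild-type cells with LPS.

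**Figure D2:**
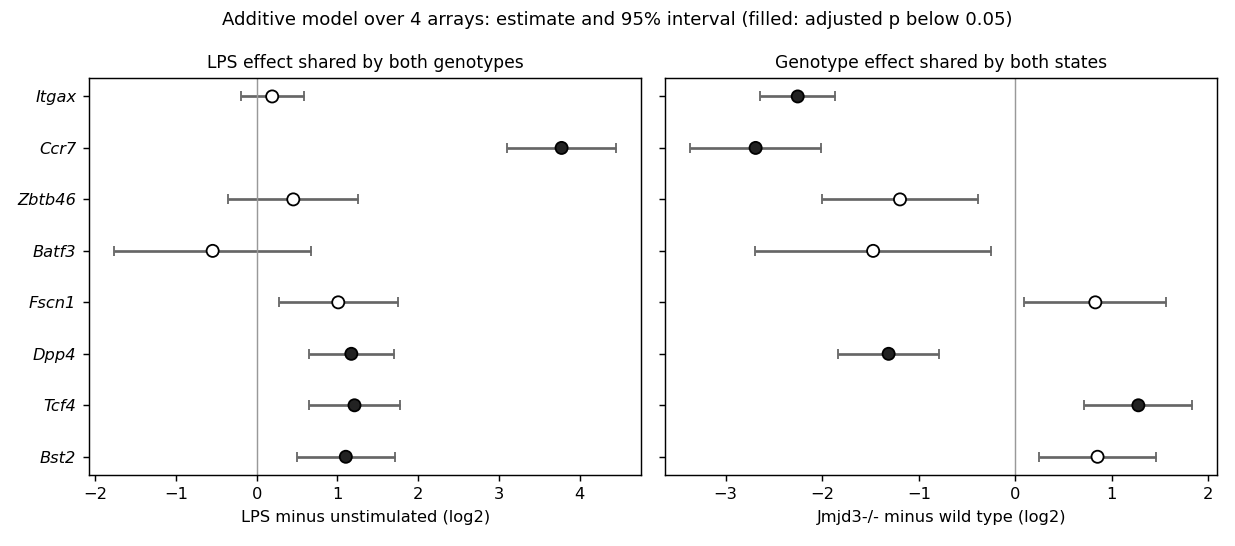
LPS effect (left) and genotype effect (right) of the 8 genes past the floor, as log2 differences with 95% intervals from the additive limma model over 4 arrays; filled points passed at an adjusted p below 0.05. Ccr7 stood farthest to the right for LPS at 3.78, and Itgax, Ccr7 and Dpp4 lay left of 0 for genotype with Tcf4 right of it.

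Bst2 encodes tetherin, an interferon-induced protein that holds budding viruses at the cell surface and serves as a plasmacytoid marker in the resting mouse. It read 11.94 with LPS and 11.25 unstimulated in Jmjd3-/- cells, against 11.50 and 9.98 in wild-type cells. The unstimulated wild-type array stood apart as the lowest. Bst2 rose by 1.10 with LPS (SE 0.23; limma adjusted p = 0.028), a call lost without the intensity trend (limma adjusted p = 0.0606). The increase was 0.69 in Jmjd3-/- cells and 1.52 in wild-type cells. Between genotypes it differed by 1.27 unstimulated and 0.44 with LPS, and the shared effect of 0.85 did not pass (95% interval 0.25 to 1.46; limma adjusted p = 0.103).

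The upstream sequences of the members were searched, since Bst2, Dpp4, Tcf4 and Ccr7 rose with LPS and NF-kB, AP-1 and interferon regulatory factors act downstream of its receptor. RefSeq promoters of assembly GRCm38.p6 were at hand for 8 of the 10 genes, without Ccr7 and Tcf4, and the 250 bases before each start were read on both strands. The motifs were GGGNNNTTCC for NF-kB, GAAANNGAAA for the interferon-stimulated response element and TGANTCA for AP-1. They occur in 4.65%, 2.98% and 6.75% of all 32851 promoters over the same length. The 3 genes printed hold a match and were called in the additive model, with the matched bases in capitals.
Bst2, chr8:71537473-71537722, minus strand: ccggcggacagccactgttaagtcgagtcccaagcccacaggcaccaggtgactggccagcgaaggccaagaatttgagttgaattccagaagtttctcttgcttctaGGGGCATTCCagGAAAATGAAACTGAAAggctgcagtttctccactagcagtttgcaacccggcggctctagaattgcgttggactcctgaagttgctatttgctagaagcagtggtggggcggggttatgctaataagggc
Dpp4, chr2:62412232-62412481, minus strand: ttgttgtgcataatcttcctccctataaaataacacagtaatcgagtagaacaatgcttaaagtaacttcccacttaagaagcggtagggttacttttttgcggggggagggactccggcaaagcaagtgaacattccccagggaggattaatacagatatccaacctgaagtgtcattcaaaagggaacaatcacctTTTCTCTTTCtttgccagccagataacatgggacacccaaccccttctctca
Itgax, chr7:128129300-128129549, plus strand: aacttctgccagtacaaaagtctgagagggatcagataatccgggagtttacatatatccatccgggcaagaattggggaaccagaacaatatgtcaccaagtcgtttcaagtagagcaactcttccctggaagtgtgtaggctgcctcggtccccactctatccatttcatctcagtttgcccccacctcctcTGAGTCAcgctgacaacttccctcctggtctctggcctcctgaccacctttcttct

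The Bst2 sequence held an NF-kB match 142 to 133 bases before the start and a pair of interferon element matches at 130 to 121 and 124 to 115. That pair shares 4 bases, so the capitals run together, and the NF-kB match overlaps neither. Dpp4 held an interferon element match on the opposite strand at 52 to 43 bases. That match and the start it precedes lie inside the annotated span of the gene. Itgax held an AP-1 match at 56 to 50, before a start that lies inside the annotated span of the gene, though the match lies outside it. Zbtb46 also held an AP-1 match, at 61 to 55, before a start that lies inside the annotated span of the gene. Flt3, Batf3, Fscn1 and Siglech had none of these letters in this window. These matches describe the sequence and are not shown to be sites.

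Fscn1 encodes fascin-1, which bundles actin filaments in the veils of mature dendritic cells. Its brightest probe set read 11.89 with LPS and 11.42 unstimulated in Jmjd3-/- cells, against 11.61 and 10.05 in wild-type cells. As with Bst2, the unstimulated wild-type array was lowest. The LPS effect of 1.01 narrowly missed the threshold (95% interval 0.27 to 1.74; limma adjusted p = 0.0542). It passed when every probe set was tested (adjusted p = 0.0441), with the median of the probe sets (adjusted p = 0.0129) and after quantile normalization (adjusted p = 0.043, all limma). The median takes in probe sets under the floor. It did not pass with a floor of log2 7 (adjusted p = 0.0512), no floor (adjusted p = 0.0552) or 64 added (adjusted p = 0.0503, all limma). Nor did it pass without the intensity trend (limma adjusted p = 0.0991) or with genotype left out (limma adjusted p = 0.28). The second probe set past the floor read 9.99 with LPS and 8.48 unstimulated in Jmjd3-/- cells, against 9.52 and 7.26 in wild-type cells, and its order of arrays was the same. LPS differences on the brightest and the second probe set were 0.46 and 1.51 in Jmjd3-/- cells, and 1.56 and 2.26 in wild-type cells. Between genotypes they were 1.38 and 1.22 unstimulated and 0.28 and 0.48 with LPS. The shared genotype effect of 0.83 did not pass (95% interval 0.09 to 1.56; limma adjusted p = 0.165). The genes of the actins that fascin binds did not pass for LPS or genotype, with Actb at 0.09 and 0.05 and Actg1 at 0.02 and -0.12. Fascin is also made by stromal cells, whose marker sum is given above, and their part in the Fscn1 readings was not tested.

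**Figure D3:**
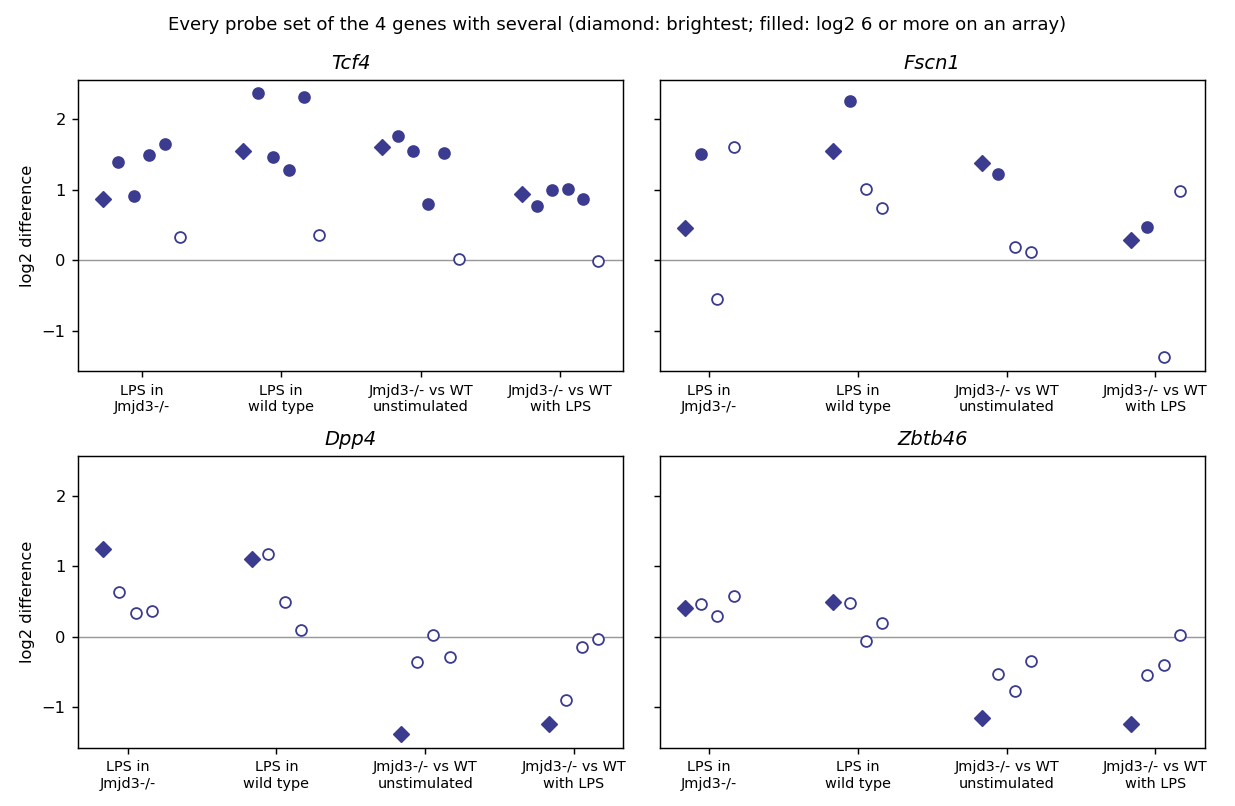
Log2 differences of every probe set of Tcf4, Fscn1, Dpp4 and Zbtb46 in the 4 comparisons between single arrays (diamond, brightest; filled, log2 6 or more on an array; open, below it). The 5 filled Tcf4 points lie above 0 in all 4 comparisons, from 0.77 to 2.37, while open Fscn1 points scatter on both sides.

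Zbtb46 encodes a zinc finger transcription factor of conventional dendritic cells and their committed precursors. Its brightest probe set read 5.22 with LPS and 4.81 unstimulated in Jmjd3-/- cells, against 6.46 and 5.96 in wild-type cells. Only the wild-type array with LPS reached the floor, and both wild-type arrays lay above both Jmjd3-/- arrays. The genotype effect of -1.19 did not pass (95% interval -2.00 to -0.39; limma adjusted p = 0.0911), and passed without the intensity trend (limma adjusted p = 0.0395). With LPS it differed by 0.41 in Jmjd3-/- cells and 0.50 in wild-type cells, and the shared effect of 0.45 did not pass (limma adjusted p = 0.307). The other 3 probe sets, at 2.78 to 4.61, were under the floor throughout.

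Batf3 encodes a basic leucine zipper factor that pairs with JUN proteins and with IRF4 or IRF8. It read 5.69 with LPS and 5.35 unstimulated in Jmjd3-/- cells, both under the floor, against 6.28 and 7.71 in wild-type cells. The unstimulated wild-type array was highest. LPS went with a lower reading in wild-type cells (-1.43) and a slightly higher one in Jmjd3-/- cells (0.34), and that difference between responses, 1.77, was not tested. In 2.56% of 9385 genes the responses differed by as much, and 5.19% of genes had a response 2-fold or more higher in Jmjd3-/- cells. The shared LPS effect of -0.55 did not pass (limma adjusted p = 0.407). Jmjd3-/- cells lay 2.36 lower unstimulated and 0.59 lower with LPS, and the shared effect of -1.47 did not pass (95% interval -2.69 to -0.25; limma adjusted p = 0.144).

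The partners of BATF3 went several ways. Irf8 rose with LPS by 1.38 (limma adjusted p = 0.00992), reading 11.47 with and 9.92 without LPS in Jmjd3-/- cells, against 10.68 and 9.46 in wild-type cells. Irf4 read 7.88 with and 5.97 without LPS in Jmjd3-/- cells, against 9.57 and 9.85 in wild-type cells, and it fell by 2.79 in Jmjd3-/- cells. The related genes Batf and Batf2 rose with LPS by 2.32 and 3.82, with Batf2 under the floor in unstimulated Jmjd3-/- cells. Junb rose by 1.49 and Jun fell by 1.08 with LPS, while Jund (0.01) did not pass.

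Flt3 and Siglech were measured by 1 probe set each. Flt3 read 2.98 with and 3.55 without LPS in Jmjd3-/- cells, against 3.03 and 3.34 in wild-type cells. Siglech read 3.57 and 3.81 in Jmjd3-/- cells with and without LPS, against 3.90 and 3.99 in wild-type cells. At such readings no order between arrays can be drawn. Tyrobp, the adaptor chain through which Siglec-H signals, was above 12 on every array and fell with LPS by 0.41 (limma adjusted p = 0.0285).

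Between single arrays the genes past the floor divided by genotype when unstimulated. At a difference of 2-fold or more, Tcf4, Fscn1 and Bst2 were higher in unstimulated Jmjd3-/- cells and Ccr7, Batf3, Itgax and Dpp4 lower. Ccr7, Batf3 and Dpp4 passed the floor there through the wild-type array alone, and with 64 added 2 genes were lower. Of 9045 genes, 9.54% were higher and 5.74% lower by that rule. With LPS, none of 8 was higher and Ccr7, Itgax, Zbtb46 and Dpp4 were lower, where 9.76% of 8630 genes were higher and 5.65% lower. Zbtb46 and Batf3 passed the floor in that comparison through the wild-type array alone. The LPS response was 2-fold or more higher for Ccr7 and Dpp4 among 6 genes in Jmjd3-/- cells, and lower for none, where 11% of genes were higher and 15.5% lower. Both passed the floor there through the LPS array alone, so nothing is read from that count. In wild-type cells it was higher for Ccr7, Fscn1, Tcf4, Bst2 and Dpp4 and lower for Batf3 among 8 genes, where 9.86% were higher and 14.3% lower. For Tcf4, Fscn1 and Bst2 the LPS response in Jmjd3-/- cells minus that in wild-type cells was -0.67, -1.10 and -0.83 on the brightest probe set. Of all genes, 4.73% had a response 2-fold or more lower in Jmjd3-/- cells, Fscn1 among them on its brightest probe set. The second Fscn1 probe set past the floor gave -0.75, short of 2-fold. These response differences were not tested, and the 5 Tcf4 probe sets past the floor gave values from -0.99 to 0.22.

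Genes of other dendritic cell types were counted in lists, with the members left out and some genes in more than 1 list. For all the lists, the shares over all genes tested were 11.2% called higher and 18.8% lower with LPS. Between genotypes they were 6.39% higher and 3.12% lower in Jmjd3-/- cells. Of 11 genes of the cross-presenting type (cDC1), 8 passed the floor, and Xcr1, Itgae and Gcsam did not. With LPS 3 rose, Tlr3 (3.05), Irf8 (1.38) and Ly75 (1.12), and Cadm1 fell (-1.02). In Jmjd3-/- cells Cadm1 rose (1.76) and Naaa fell (-2.25). Of 13 genes of the cDC2 and monocyte-derived types 10 passed the floor, and Cd209a, Esam and Epcam did not. In Jmjd3-/- cells 5 of these 10 fell and 1 rose, with Plet1 at -6.30, the lectin gene Mgl2 at -4.84, Ccl17 at -4.64 and the lipid-presenting Cd1d1 at -4.28. Plet1 and Mgl2 were under the floor on both Jmjd3-/- arrays and Ccl17 and Cd1d1 on 1 of them, so these sizes rest on background readings. Their median genotype effect was -1.58 past the floor and -0.33 over all 13. With LPS 2 rose, Plet1 (1.22) and Notch2 (0.75), and none fell.

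Of 14 plasmacytoid genes 7 passed the floor, while Ly6d, Klk1, Pacsin1, Spib, Tlr9, Ptprcap and Upb1 were below it on every array. Irf7, the master regulator of type I interferon, rose by 3.15 with LPS, Ccr9 by 1.86 and the RNA sensor Tlr7 by 1.0, and in Jmjd3-/- cells Cox6a2 fell by 2.09. Ccr9 reached the floor only in wild-type cells with LPS. The 25 genes of mature migratory dendritic cells had 21 past the floor, of which 16 rose with LPS and none fell. Over all genes tested, 11.2% were called higher with LPS and 18.8% lower. Il12b rose by 7.43, the costimulatory receptor gene Cd40 by 5.15, Traf1 by 4.87 and the chemokine Ccl22 by 4.86, with a list median of 2.14 past the floor and 1.88 over all 25. Il12b, and also Serpinb6b and Stat4 among the 16, were under the floor on both unstimulated arrays and passed it through LPS arrays alone. Traf1 and Ccl22 were under it in unstimulated Jmjd3-/- cells. Their sizes rest in part on background readings. In Jmjd3-/- cells 3 of the 21 fell and 1 rose, with Pdcd1lg2, the PD-L2 gene, at -4.15, Serpinb9 at -2.03, Cd80 at -1.33 and Cd83 at 1.69. Among 18 growth factor, receptor and lineage factor genes past the floor, 8 rose and 1 fell with LPS, led by Csf2 (1.91), Stat3 (1.71), Stat5a (1.61) and Ikzf1 (1.56). Between genotypes 2 rose and 5 fell in that list. Csf2, the gene of the dendritic cell growth factor GM-CSF, fell by 4.28 and its receptor chain Csf2rb by 1.47, while Csf1 (1.53) and Bcl6 (1.53) rose. Csf2 and Pdcd1lg2 were under the floor in unstimulated Jmjd3-/- cells. Of 23 partner genes of the markers, all past the floor, 8 rose and 4 fell with LPS, and 2 rose and 3 fell in Jmjd3-/- cells.

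**Figure D4:**
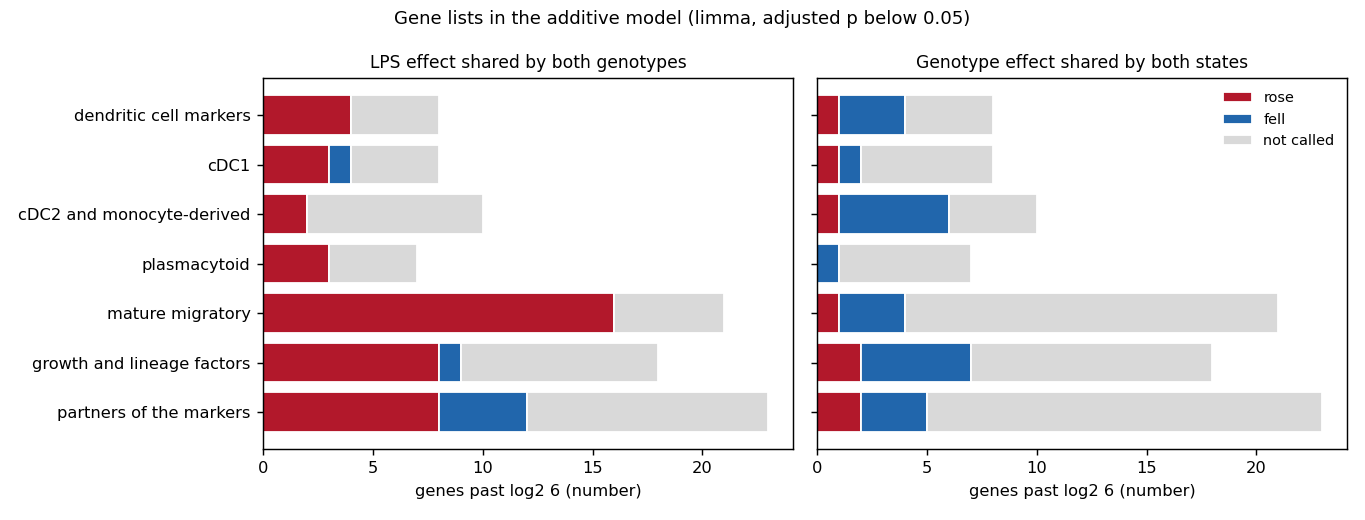
Number of genes past the floor that rose (red), fell (blue) or were not called (grey) in each list, for the LPS effect (left) and the genotype effect (right) of the additive limma model. In the mature migratory list 16 of 21 genes rose with LPS, where 11.2% of all genes tested did. In the cDC2 and monocyte-derived list 5 of 10 fell in Jmjd3-/- cells, where 3.12% of all genes tested did.

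Likeness to the markers was measured as the distance between log2 levels over the 4 arrays, each gene centred on its own mean, where 0 is the same profile. Bst2 and Fscn1 were each other's nearest gene, at 0.16. Bst2 was next nearest to Rcn1 and Gcnt2, both at 0.19, and Tcf4 to Rcn1 and the transcription factor gene Gfi1, both at 0.30. Nearest to Itgax were Bcl11b (0.11), Trav9d-3 (0.14) and Plbd1 (0.14). Bcl11b and Trav9d-3, a T cell transcription factor and a T cell receptor segment, were above log2 6 in wild-type cells and below it in Jmjd3-/- cells. The CD3 chain genes Cd3g, Cd3e and Cd3d fell in Jmjd3-/- cells by 3.33, 3.06 and 2.54. These CD3 genes were under the floor on both Jmjd3-/- arrays, so the sizes rest on background readings. Ccr7 was nearest to Ptx3, the long pentraxin, at 0.74 and to the nuclear receptor gene Nr4a3 at 0.88. Dpp4 was nearest to the aminopeptidase gene Lap3 at 0.13, and Zbtb46 to P2ry10b at 0.13. Batf3 was nearest to Pot1b at 0.33. Pot1b passed the floor in unstimulated wild-type cells alone, and Gfi1 in Jmjd3-/- cells with LPS alone. With 4 values per gene such neighbours are a description.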

How the data were processed

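Expression had been measured on Affymetrix arrays from biotinylated cRNA made with the NuGEN Ovation system, per the labels. The authors summarised probe sets with RMA, per the submitters' processing notes, and deposited log2 values; no source used here names the version. Of 45101 probe sets, 34945 were annotated to 1 gene, and 34741 of these were matched by gene ID to RefSeq (GRCm38.p6). The probe set of highest average level stood for its gene. The additive model was fitted with limma 3.58.1 in R 4.3.3 (intensity trend, prior of 3.84 degrees of freedom) to the 9385 genes at log2 6 or more on an array. Without adjustment, p was below 0.05 for 4221 genes (LPS) and 2287 (genotype). The test was run on simulated data that were additive by construction, which cannot check the additive assumption. Differences between single arrays have no test and were counted at 2-fold. Other tools were Python 3.11.15, numpy 2.4.6, pandas 2.3.3 and matplotlib 3.10.9. The members, gene lists and tests were chosen with earlier results of these data known. Named were all members, the list genes with the largest called effects, partners and some or all of the 3 nearest genes of each member. Only 4 arrays limit the precision.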

Additional observations from a re-analysis of the deposited data

Results flagged for a closer look

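Batf3 differed with LPS in opposite directions in the 2 genotypes, by 0.34 in Jmjd3-/- cells and -1.43 in wild-type cells. Each value rests on a pair of single arrays, both Jmjd3-/- readings were under log2 6, and the difference was not tested.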

How the results depend on the processing

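No paired analysis was possible because each group had 1 array and the labels carry no replicate numbers. No shared effect and no 2-fold difference of a member changed sign in the alternatives run. The floors, every probe set, the intensity trend and leaving out a factor keep each estimate as it was. A sign could change only with the median, quantile normalization or, for shared effects, 64 added. With the other factor left out of the model, no member was called: all genes called for LPS numbered 183 higher and 84 lower, and for genotype 100 higher and 11 lower, where the reported fit gave 1054, 1769, 600 and 293. Among the members, 0 passed in either direction there, and the lowest limma adjusted p was 0.181 for LPS (Ccr7) and 0.0509 for genotype (Itgax). With every probe set as its own entry, 1981 were higher and 2879 lower with LPS and 520 lower in Jmjd3-/- cells. With the median of a gene's probe sets, 396 genes were higher in Jmjd3-/- cells, and 2 members in place of 4 were 2-fold lower in Jmjd3-/- cells with LPS. Without the intensity trend 0 members were higher in Jmjd3-/- cells, in place of 1. With a floor of log2 7, or with 64 added, 1 member in place of 2 was 2-fold higher with LPS in Jmjd3-/- cells. With 64 added, 0 in place of 1 was lower with LPS in wild-type cells, and 2 in place of 4 were lower in Jmjd3-/- cells, both unstimulated and with LPS. With the median, Dpp4 and Zbtb46 no longer reached the floor. At a floor of log2 7, Dpp4 left the Jmjd3-/- LPS count, at 6.99 with LPS. With 64 added, the LPS differences of Dpp4 in Jmjd3-/- cells (0.70) and Batf3 in wild-type cells (-0.95) were short of 2-fold. The cause of the other changes was not tested. Over the single member values, 254 kept their call or moved by less than the spread between probe sets, 17 moved by more, 4 gained a call and 10 lost it. For differences between single arrays, the floors and every probe set left the value unchanged, so part of the 254 was fixed in advance. Readings below log2 6 limit Flt3, Siglech, Zbtb46, Batf3, Ccr7 and Dpp4; with 64 added, the LPS difference in Jmjd3-/- cells was 1.57 for Ccr7 and 0.70 for Dpp4.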

Other observations

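Some partner genes of the markers had LPS differences far apart in the 2 genotypes, and were picked after their values were seen. Cav1, the gene of caveolin-1, a binding partner of DPP4, was higher with LPS by 1.60 in Jmjd3-/- cells and 5.15 in wild-type cells. Id1, an inhibitor of E proteins such as TCF4, differed with LPS by 0.16 in Jmjd3-/- cells and -2.41 in wild-type cells. Batf was higher with LPS by 3.31 in Jmjd3-/- cells and 1.34 in wild-type cells, and Batf2 by 4.93 and 2.71. These differences between responses were not tested. Batf2 was under log2 6 in unstimulated Jmjd3-/- cells, Cav1 in unstimulated wild-type cells and Id1 in wild-type cells with LPS.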
